A study of Mus musculus with 7 samples.

Results

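The neuregulins and the ErbB receptors were followed in forebrain RNA of mice that carry 1 or no functional copy of Lhx6. The 8 genes are the receptors Erbb4, Erbb2, Erbb3 and Egfr and the ligands Nrg1, Nrg2, Nrg3 and Nrg4. They were taken by symbol from the 47729 genes of the count table, and all 8 were among the 19684 genes with enough counts to be tested. Cortical interneurons with somatostatin or parvalbumin are born in the medial ganglionic eminence (MGE) of the embryo, and they depend on Lhx6, a LIM homeodomain factor, to mature. Samples came from whole forebrain at postnatal day 15 (P15) of F1(C57BL/6 X 129Sv) mice. Control mice were Lhx6+/-, with 1 copy of the null allele Lhx6tm2Vpa, and mutant mice were Lhx6-/-, with that allele on both chromosomes. No wild-type group was included and the mutation was present in every cell, so the comparison is between 1 and 0 functional copies throughout the animal. There were 4 control and 3 mutant libraries, each made from a pool of 2 mice, so errors given here are between pools, not single animals.

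ErbB receptors are tyrosine kinases that sit in the cell membrane and signal in pairs. Neuregulins carry an EGF-like domain that binds ErbB3 or ErbB4. ErbB2 has no known ligand of its own and acts as the partner of a bound receptor, ErbB3 has little kinase activity and depends on its partner, and EGFR binds EGF, TGF-alpha and related ligands in place of neuregulins. In the cortex ErbB4 is found mainly on GABAergic interneurons, the parvalbumin cells in particular, where neuregulin signalling guides migration and the formation of synapses. ErbB3 is a receptor of the oligodendrocyte lineage, and EGFR is known from neural and glial progenitors and from astrocytes.

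Library totals ran from 32556304 to 38069151 expected counts in controls and from 34943398 to 37384849 in mutants. With 3 counts as the limit for a count of 0, a gene below 0.0788 to 0.0921 CPM (counts per library size) could have gone undetected. This limit covers counting error only, and all members were well above it in all libraries. The count table marks each library by genotype and a number, 2, 3, 10 and 11 for controls and 5, 12 and 13 for mutants, and values for single libraries are listed in that order throughout. The first principal component of log2 CPM (39.6% of the variance) set libraries 2, 3 and 5 apart from 10 to 13, and both sets contain both genotypes. What the numbers stand for is not stated, so differences are also given within each set of numbers and with the set as a term in the model. The Lhx6 count checks the labels: it was 615, 522, 476 and 522 in the controls and 70.9, 76.6 and 70.1 in the mutants. All values given as counts are normalized counts, scaled to the mean effective library size. Differences are log2 fold changes of mutant over control from edgeR's quasi-likelihood test over all 19684 genes, with a Benjamini-Hochberg adjusted p of 0.05 or less as the threshold.

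Of the 5 members with a RefSeq promoter window (Erbb4, Erbb2, Egfr, Nrg3 and Nrg4), those of Erbb4 and Erbb2 are shown because these genes had the lowest and the highest fold change of the family. Each run is the 250 bases ahead of the RefSeq transcription start on the strand of the gene, in GRCm38.p6, with CpG dinucleotides in capitals. The Erbb4 window lies at chr1:69108060-69108309 on the minus strand and the Erbb2 window at chr11:98412234-98412483 on the plus strand.
Erbb4: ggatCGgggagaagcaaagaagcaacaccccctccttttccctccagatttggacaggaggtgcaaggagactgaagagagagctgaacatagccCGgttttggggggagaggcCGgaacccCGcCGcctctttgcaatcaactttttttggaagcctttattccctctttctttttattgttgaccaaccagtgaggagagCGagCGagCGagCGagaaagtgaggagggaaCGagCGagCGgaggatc
Erbb2: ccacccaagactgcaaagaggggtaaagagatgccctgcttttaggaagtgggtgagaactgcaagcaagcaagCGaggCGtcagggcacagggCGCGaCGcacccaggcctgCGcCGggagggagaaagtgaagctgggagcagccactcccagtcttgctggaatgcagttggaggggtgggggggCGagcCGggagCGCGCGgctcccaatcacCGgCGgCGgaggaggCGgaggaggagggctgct
The Erbb4 window held 12 CpG and 54.0% GC, and the Erbb2 window 16 CpG and 66.0% GC. The medians of all 32851 RefSeq windows of this length were 6 CpG and 52.4% GC. The letters TAATTA, a core read by LIM homeodomain proteins, were in 4.84% of all windows and in 0 of the 5 member windows; those of the cAMP response element, TGACGTCA, were in 1.55% and again in 0 of the 5. Both motifs read alike on either strand and neither contains the other. These counts say only that the letters are not in those 250 bases.

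The receptor and ligand genes differ in their architecture. In the Ensembl annotation of GRCm38 that the counts rest on, Erbb4 lies on chromosome 1 from 68032186 to 69108059 on the minus strand, with 12355 bases of exon sequence. Erbb2 (chromosome 11, 98412470 to 98437716, plus strand) and Erbb3 (chromosome 10, 128567523 to 128589652, minus strand) are compact genes, with 5210 and 6016 exon bases. Egfr shares chromosome 11 with Erbb2, from 16752203 to 16918158 on the plus strand. Among the ligands, Nrg1 (chromosome 8, 31814551 to 32884029) and Nrg3 (chromosome 14, 38368952 to 39473088) span about as much of the genome as Erbb4, while Nrg2 (chromosome 18, 36017707 to 36197380) and Nrg4 (chromosome 9, 55220222 to 55326844) are shorter; all 4 ligand genes lie on the minus strand. The number of annotated transcripts ran from 1 for Erbb3 to 18 for Nrg1, so the gene counts sum many Nrg1 isoforms, which were not told apart.

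Among the receptors, Erbb4 was lower in mutants, Erbb2 and Egfr were measured higher in every mutant than in any control library, and Erbb3 overlapped between the genotypes. The 4 ligand genes overlapped. One of the 8 genes, Erbb4, passed the test, and it fell; 0 passed in the upward direction. Over all genes tested, 4.85% were called, 2.97% higher and 1.87% lower in mutants. Libraries of the genotypes did not overlap for 3 of the 8 genes, against 19.7% of all genes. At an unadjusted p of 0.05 or less, 3 of the 8 genes passed (Erbb4, Erbb2 and Egfr), where 18.2% of all genes did. With the set of library numbers as a term, 3 of the 8 were called, Erbb4 and Erbb3 lower and Erbb2 higher, where 11.2% of all genes were.

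**Figure D1:**
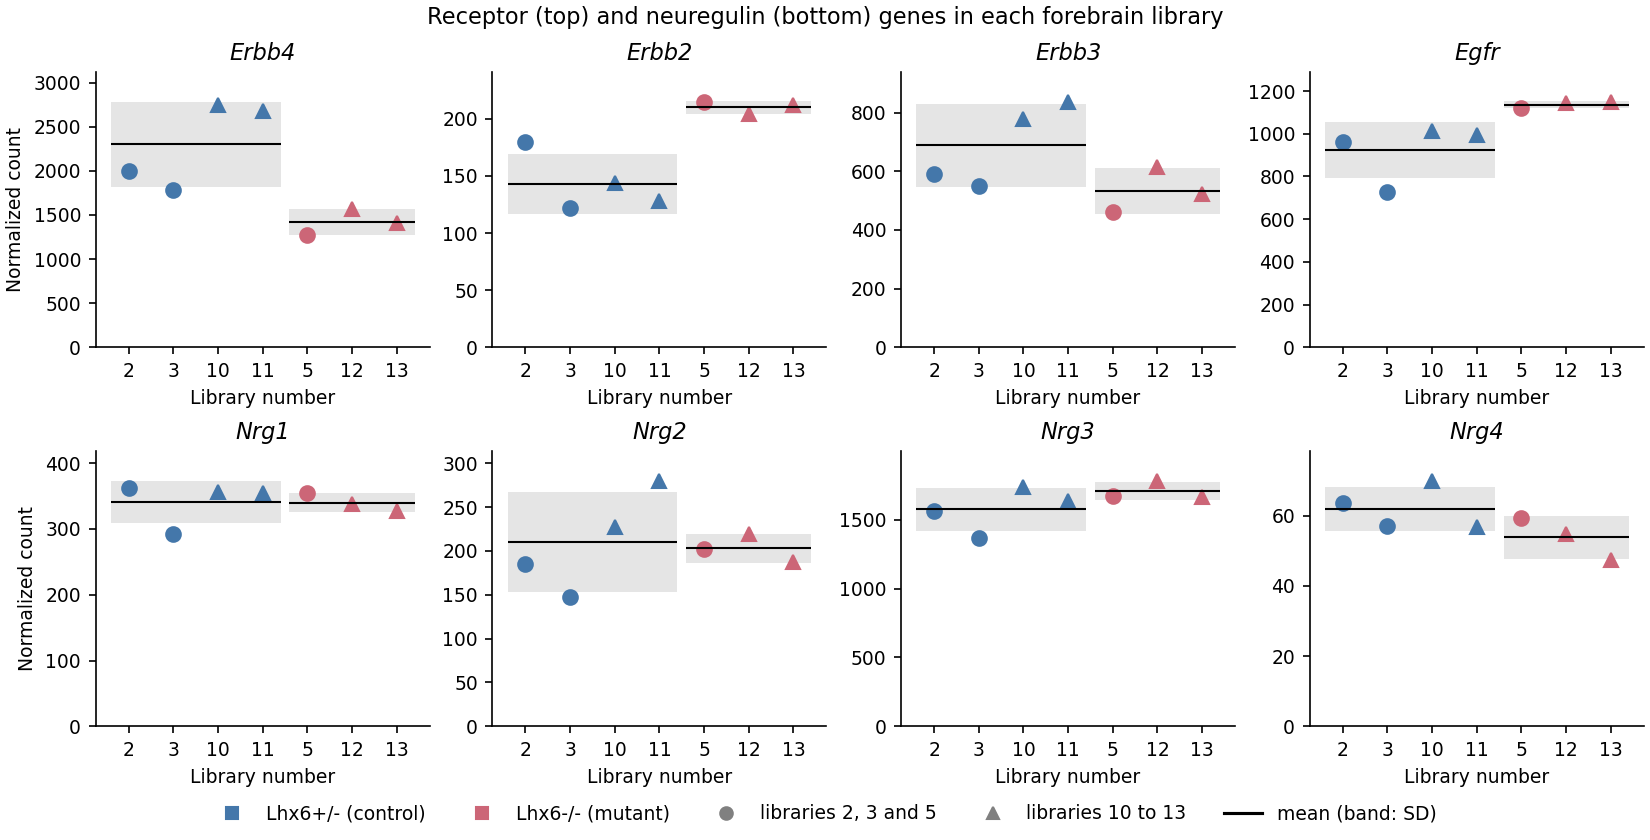
Normalized counts (vertical axes, from 0) of the 4 receptor and 4 neuregulin genes in each of the 7 libraries, numbered as in the count table, with the mean and SD of each genotype. Erbb4 lay between 1778 and 2746 in controls and between 1274 and 1567 in mutants, while all 4 neuregulins overlapped between the genotypes.

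Erbb4 is the neuregulin receptor of cortical interneurons. Its counts were 2000, 1778, 2746 and 2675 in the controls and 1274, 1567 and 1409 in the mutants. All 3 mutant libraries lay below all 4 controls, and within the controls the libraries numbered 10 and 11 were higher than 2 and 3. The mean was 2300 ± 483 in controls (SD, n = 4) and 1417 ± 147 in mutants (SD, n = 3), or 61.6% of the control mean. Erbb4 fell by 0.70 on the log2 scale (SE 0.164, 95% interval -1.07 to -0.33, edgeR adjusted p = 0.0485). The difference was -0.57 in the set of libraries 2, 3 and 5 and -0.87 in the set 10 to 13, and -0.75 with the set of numbers as a term (SE 0.0856, adjusted p = 0.00147).

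The Erbb4 call was close to the threshold. It was kept in 7 of 15 alternative analyses, in which its adjusted p ran from 0.00114 to 0.176 and its log2 fold change from -0.80 to -0.60, always negative. Of the 7 fits that left out 1 library, only the one without control library 3 kept it (adjusted p = 0.0185); it was 0.0582 without control 2, 0.106 without control 10, 0.101 without control 11, 0.157 without mutant 5, 0.107 without mutant 12 and 0.176 without mutant 13.

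Like Erbb4, most markers of the MGE lineage were lower in mutants. Sst, the peptide gene of somatostatin interneurons, fell by 3.19 (adjusted p = 6.37e-05), and Pvalb, the calcium-binding protein gene of parvalbumin interneurons, by 3.05 (adjusted p = 0.000389). Of 13 MGE interneuron markers, 8 fell and 2 rose, with a median of -0.86, and their summed count was 25782 to 28081 in controls and 14733 to 16847 in mutants. The 2 that rose were Cort, which encodes the peptide cortistatin, and Tac1, which encodes substance P. Sst, Pvalb and Cort passed whichever single library was left out, and Tac1 in 3 of those 7 fits (not without control 2 or 10 or mutant 12 or 13, with adjusted p of up to 0.151). Of 11 markers of interneurons from the caudal ganglionic eminence (CGE), 4 rose and 0 fell, the median was 0.37, and their sum was 21078 to 24604 in controls and 27187 to 30769 in mutants. No marker of either list was at 0 in all libraries. The forebrain was sequenced whole, so fewer cells of a type and less RNA per cell cannot be told apart, and the part of the MGE markers in the Erbb4 difference was not tested.

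For GABAergic neurons as a class, 2 of 9 markers fell and the others did not pass the test. With the set of library numbers as a term, 2 rose and 2 fell. Gad1 and Gad2 encode the enzymes that make GABA. Their log2 fold changes were 0.50 (adjusted p = 0.0951) and 0.48 (adjusted p = 0.0862). They were the markers that rose with the set as a term, by 0.44 (adjusted p = 0.00586) and 0.41 (adjusted p = 0.00768). Slc32a1, the vesicular GABA transporter gene, differed by -0.04 (SE 0.158, adjusted p = 0.936). The summed count of the 9 was 36210 to 42411 in controls and 33743 to 43222 in mutants.

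Relative to Gad1 and Gad2, Erbb4 was further apart between the genotypes than on its own. As a percentage of their summed count, Erbb4 was 16.7, 14.0, 17.4 and 17.9 in the controls and 7.94, 7.08 and 6.99 in the mutants. Controls were closer to each other on this ratio than on the count itself, and the genotypes did not overlap. The mean was 16.5% ± 1.73 (SD, n = 4) in controls and 7.34% ± 0.526 (SD, n = 3) in mutants, a log2 difference of -1.17 (two-sided exact permutation test, p = 0.0571, the smallest that 4 against 3 libraries can give). Against Slc32a1 the ratio was 56.7% ± 7.77 in controls (SD, n = 4) and 36.6% ± 4.25 in mutants (SD, n = 3), a log2 difference of -0.63 (exact permutation p = 0.0571). Gad1 and Gad2 were themselves measured higher in mutants, which adds to the first ratio, and this test cannot pass 0.05 at this number of libraries.

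**Figure D2:**
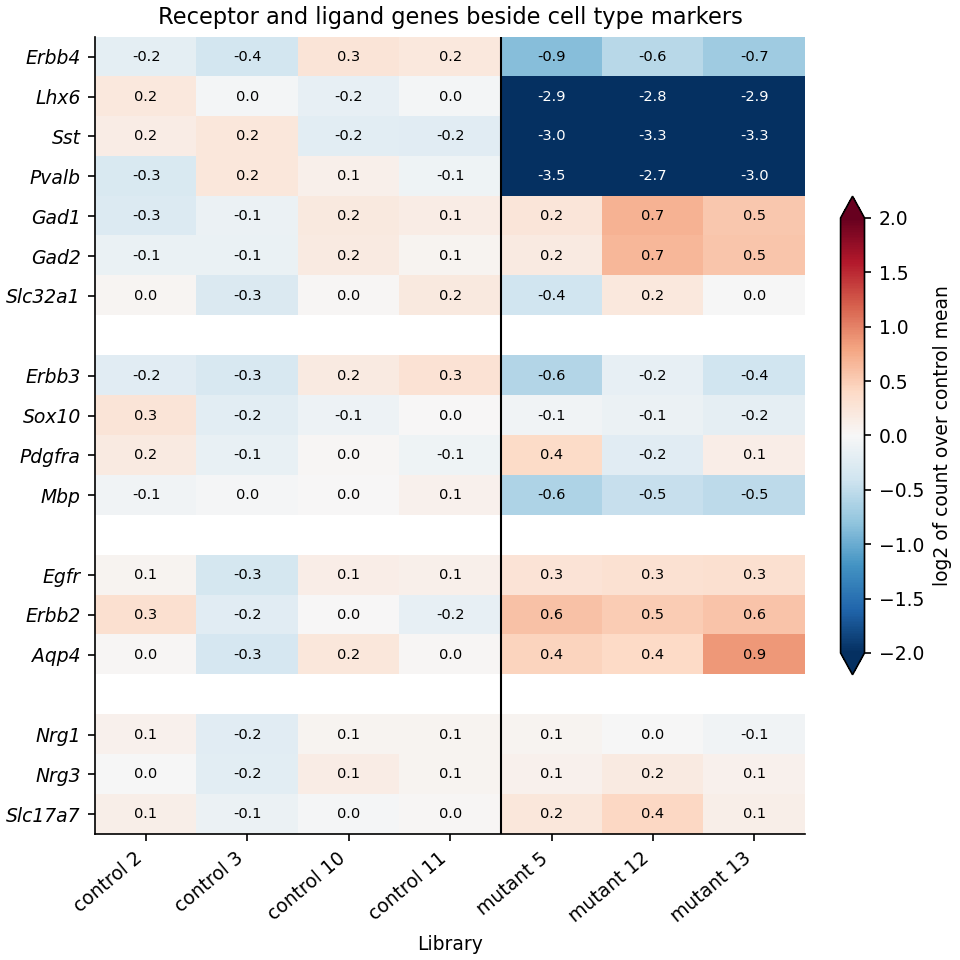
Log2 of the normalized count over the control mean (colour scale, limited at -2 and 2, with the value printed in each cell) for receptor and ligand genes and markers of interneurons, the oligodendrocyte lineage, astrocytes and excitatory neurons, in the 4 control and 3 mutant libraries. Erbb4 is below the control mean in all 3 mutant libraries, beside a larger reduction of Lhx6, Sst and Pvalb, while Gad1 and Gad2 are above it.

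Erbb2, the ligandless partner receptor, was measured higher in mutants. Its counts were 180, 122, 144 and 128 in the controls and 215, 204 and 212 in the mutants. The mutant libraries were close to each other and all above the highest control, library 2. The mean was 143 ± 26.1 in controls (SD, n = 4) and 210 ± 5.59 in mutants (SD, n = 3), 147% of the control mean. The log2 difference was 0.55 (SE 0.158, 95% interval 0.19 to 0.91), and its edgeR adjusted p of 0.0922 missed the threshold. It was 0.53 in the set of libraries 2, 3 and 5 and 0.61 in the set 10 to 13. Erbb2 was called in 3 of 15 alternatives, namely DESeq2 (adjusted p = 0.033), the fit without control library 2 (0.0376) and the fit with the set of numbers as a term (0.0445). Its exons share 9 bases with those of Mien1 on the other strand, 0.173% of its exon sequence, and Mien1 differed by -0.24 (adjusted p = 0.294).

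Egfr was measured higher in mutants, with a smaller log2 difference than that of Erbb2. The gap between these genes was not tested. Counts were 961, 727, 1015 and 994 in the controls and 1119, 1143 and 1150 in the mutants. The 3 mutant libraries lay within a narrow range above all controls, and control library 3 was the lowest. The mean was 924 ± 133 in controls (SD, n = 4) and 1137 ± 16.5 in mutants (SD, n = 3), or 123% of control. The log2 difference of 0.30 (SE 0.119, 95% interval 0.03 to 0.57) did not pass the test (adjusted p = 0.226), nor did it in any of 15 alternatives. Within libraries 2, 3 and 5 it was 0.42, and within libraries 10 to 13 it was 0.19.

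Beside Egfr and Erbb2, 1 of 10 astrocyte markers rose and the summed count of the list was higher in mutants. Aqp4, the water channel gene of astrocyte endfeet, differed by 0.59 (adjusted p = 0.0716). The marker that rose was the filament gene Gfap, also without any 1 library, and 0 fell. With the set of library numbers as a term, 3 of the 10 rose and 0 fell. These were Gfap (adjusted p = 5.05e-05), Gja1 (adjusted p = 0.021) and Aqp4 (adjusted p = 0.03). Without that term the median was 0.21, and the log2 difference was positive for 9 of the 10. The sum was 218519 to 314373 in controls and 343004 to 399739 in mutants. Most of that difference lay in Slc1a2, with a mean of 197129 in controls and 267793 in mutants, which did not pass (adjusted p = 0.2). Gfap added to it, with 6537 in controls and 25196 in mutants. Of 6 markers of progenitors and immature neurons, 0 passed the test in either direction, with a median of 0.072. No marker of these lists was at 0 in all libraries. Their part in the Egfr and Erbb2 values was not tested.

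Erbb3, the receptor of the oligodendrocyte lineage, did not pass the test. Counts were 590, 549, 777 and 837 in the controls and 461, 615 and 522 in the mutants. Mutant library 12 exceeded control libraries 2 and 3, and controls 10 and 11 exceeded all others. The means were 688 ± 140 in controls (SD, n = 4) and 532 ± 77.6 in mutants (SD, n = 3), and the mutant mean was 77.3% of control. The log2 difference was -0.37 (SE 0.175, 95% interval -0.77 to 0.03, adjusted p = 0.312). It was -0.30 in the set of libraries 2, 3 and 5 and -0.51 in the set 10 to 13, so that each set of numbers gave the same sign. With the set as a term the difference was -0.43 (SE 0.0924) and passed (adjusted p = 0.0215), the only one of 15 alternatives in which it did.

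Beside Erbb3, 3 of 11 myelin genes fell and 0 of 10 precursor genes did. Mbp, which encodes myelin basic protein, fell by 0.53 (adjusted p = 0.00752, and 0.0624 without mutant library 13). Of 11 markers of myelinating oligodendrocytes, 3 fell and 0 rose, with a median of -0.51, and their sum was 244249 to 318292 in controls and 175552 to 218985 in mutants. With the set of library numbers as a term, 9 of the 11 fell. Sox10, a transcription factor gene of the whole oligodendrocyte lineage, differed by -0.12 (adjusted p = 0.661), and Pdgfra, the growth factor receptor gene of precursors, by 0.12 (adjusted p = 0.756). Of 10 precursor markers, 1 rose, the proteoglycan gene Vcan, and 0 fell; Vcan did not pass without control 2 or any 1 of the 3 mutant libraries (adjusted p = 0.054 to 0.11). Their sum was 25900 to 32172 in controls and 28893 to 29839 in mutants, and no marker of either list was at 0 in all libraries. The part of the myelin genes in the Erbb3 value was not tested.

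**Figure D3:**
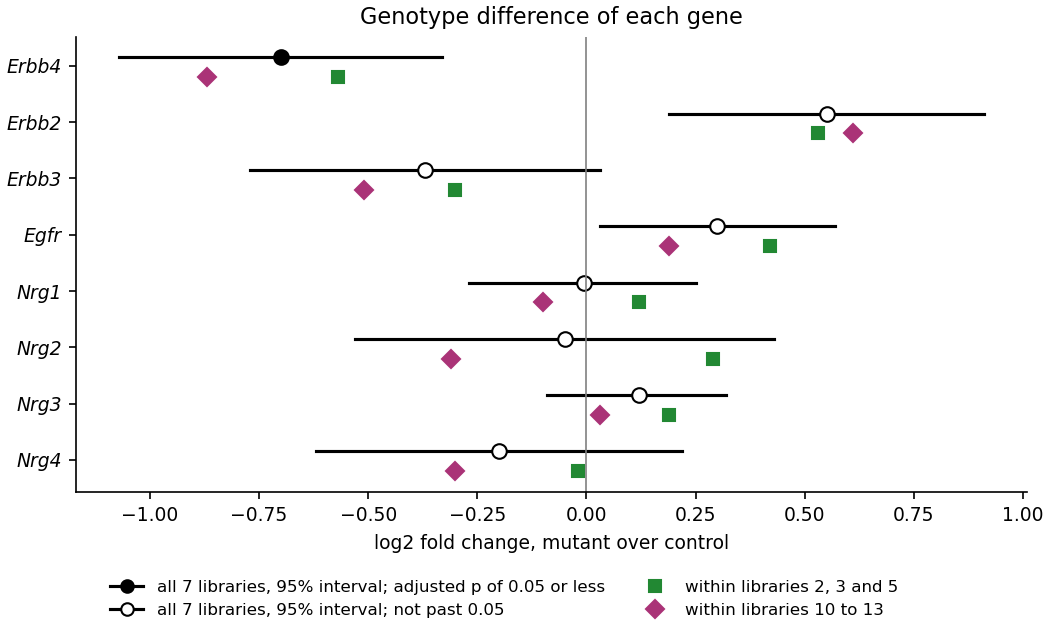
Log2 fold change of mutant over control (horizontal axis) for each of the 8 genes. Circles with 95% intervals are the fit to all 7 libraries, filled where the edgeR adjusted p was 0.05 or less; squares and diamonds are the differences within libraries 2, 3 and 5 and within libraries 10 to 13. Erbb4, Erbb2, Erbb3 and Egfr keep their sign in both sets of libraries, while Nrg1 and Nrg2 do not.

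Nrg1, the founding ligand of the family, had nearly equal means in the 2 genotypes. Counts were 362, 293, 356 and 355 in the controls and 355, 338 and 327 in the mutants. All but control library 3 lay in a common range. The means were 341 ± 32.3 (SD, n = 4) and 340 ± 14.4 (SD, n = 3), a mutant mean of 99.6% of control, and the 95% interval of the log2 difference was -0.27 to 0.25 (adjusted p = 0.989). The difference was 0.12 in the set of libraries 2, 3 and 5 and -0.10 in the set 10 to 13. Nrg1 shares 482 exon bases, 4.66% of its exon sequence, with Gm26578 on the other strand; that gene had 12.1 to 23.0 counts per library.

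Nrg2, a ligand close to Nrg1 in sequence, overlapped between the genotypes. Its counts were 185, 147, 227 and 280 in the controls and 202, 219 and 187 in the mutants. All mutant values lay inside the control range. The mean was 210 ± 57.0 in controls (SD, n = 4) and 203 ± 16.5 in mutants (SD, n = 3), and the log2 difference was -0.05 (SE 0.21, 95% interval -0.53 to 0.43, adjusted p = 0.941). It was 0.29 in the set of libraries 2, 3 and 5 and -0.31 in the set 10 to 13, opposite signs whose difference was not tested.

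Nrg3, a ligand of ErbB4 made by neurons, was the neuregulin with the highest counts. They were 1563, 1368, 1737 and 1634 in the controls and 1669, 1783 and 1667 in the mutants. The mutant libraries lay in the upper part of the control range or just above it. Means were 1575 ± 156 in controls (SD, n = 4) and 1707 ± 66.6 in mutants (SD, n = 3), 108% of control, with a log2 difference of 0.12 (95% interval -0.09 to 0.32, adjusted p = 0.593).

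Nrg4, a short ligand that binds ErbB4 and is known best from adipose tissue, had the lowest counts of the 8 genes. They were 63.6, 57.2, 70.0 and 56.9 in the controls and 59.4, 54.9 and 47.3 in the mutants. The genotypes overlapped. The mutant mean was 86.9% of control, and the log2 difference was -0.20 (SE 0.185, 95% interval -0.62 to 0.22, adjusted p = 0.654). Nrg4 is the member whose count is least certain, as 6.97% of its 36-base words also occur in another gene, and its exons share 368 bases with Fbxo22 and 177 with Gm15625 on the other strand. Fbxo22 had 893 to 1243 counts per library and differed by -0.07 (adjusted p = 0.833), while Gm15625 was at 0 in all 7 libraries. A log2 difference of 0.30, the size measured for Egfr, lay outside the interval of Nrg1 in both directions and inside that of the other ligands in at least 1.

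Excitatory neurons, a source of neuregulins in the cortex, were followed by 8 markers, of which 1 rose and 0 fell; with the set of library numbers as a term, 1 rose and 1 fell. The log2 difference was negative for 5 of the 8, with a median of -0.093. Slc17a7, the vesicular glutamate transporter gene, differed by 0.25 (adjusted p = 0.203), and the 8 summed to 177118 to 230495 counts in controls and 177759 to 204976 in mutants.

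Between genes, levels can be set side by side only per length. Scaled to exon length and library size (CPM per kb, with CPM the count scaled to library size), the control level was 6.49 ± 0.641 for Nrg3, 5.22 ± 1.1 for Erbb4, 3.21 ± 0.655 for Erbb3, 2.29 ± 0.33 for Egfr, 1.91 ± 0.52 for Nrg2, 0.926 ± 0.0876 for Nrg1, 0.772 ± 0.141 for Erbb2 and 0.286 ± 0.0287 for Nrg4 (SD, n = 4). The forebrain thus held more Nrg3 RNA per length than RNA of any other neuregulin, and more Erbb4 than any other ErbB receptor. In this order the control libraries of Nrg3 and Erbb4 overlapped, as did those of Egfr and Nrg2 and those of Nrg1 and Erbb2. Their ranges alone do not set these neighbours apart. Within a library, Nrg3 exceeded Erbb4 and Nrg1 exceeded Erbb2 in 4 of 4 controls, and Egfr exceeded Nrg2 in 3 of 4. In mutants the level was 7.03 ± 0.274 for Nrg3, 3.22 ± 0.333 for Erbb4, 2.82 ± 0.0408 for Egfr, 2.48 ± 0.362 for Erbb3, 1.85 ± 0.15 for Nrg2, 1.13 ± 0.0301 for Erbb2, 0.922 ± 0.0391 for Nrg1 and 0.249 ± 0.0281 for Nrg4 (SD, n = 3). Nrg3 and Erbb4 no longer overlapped there, Egfr stood above Erbb3 in the order with 1 mutant library of Erbb3 above all of Egfr, and Erbb2 stood above Nrg1. With the longest transcript in place of all exon sequence, the control level of Nrg3 became 9.57 to 12.2 over the libraries, and the means of Nrg1 and Nrg4 became 1.77 and 0.83, which puts Nrg4 beside Erbb2 and Nrg1 beside Nrg2.

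As a share of the 4 receptors' summed level per length, Erbb4 made up 42.7, 44.6, 47.4 and 46.3% in the controls and 32.3, 34.4 and 33.2% in the mutants. By exon length it was the leading receptor in all 7 libraries, by a smaller margin in mutants; by the longest transcript, Egfr (32.7%) exceeded it (31.6%) in mutant library 5. Egfr made up 18.7 to 22.4% in controls and 27.3 to 30.9% in mutants. The Erbb2 share was 6.87% ± 1.7 in controls (SD, n = 4) and 11.8% ± 1.14 in mutants (SD, n = 3), and the Erbb3 share 27.9% ± 1.62 and 25.6% ± 1.89. Shares of a sum are tied to each other and were not tested. The sum itself was 11.5 ± 2.01 in controls and 9.65 ± 0.693 in mutants, with overlapping libraries. Among the ligands, the Nrg3 share was 67.7% ± 2.57 in controls (SD, n = 4) and 70.0% ± 0.981 in mutants (SD, n = 3).

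**Figure D4:**
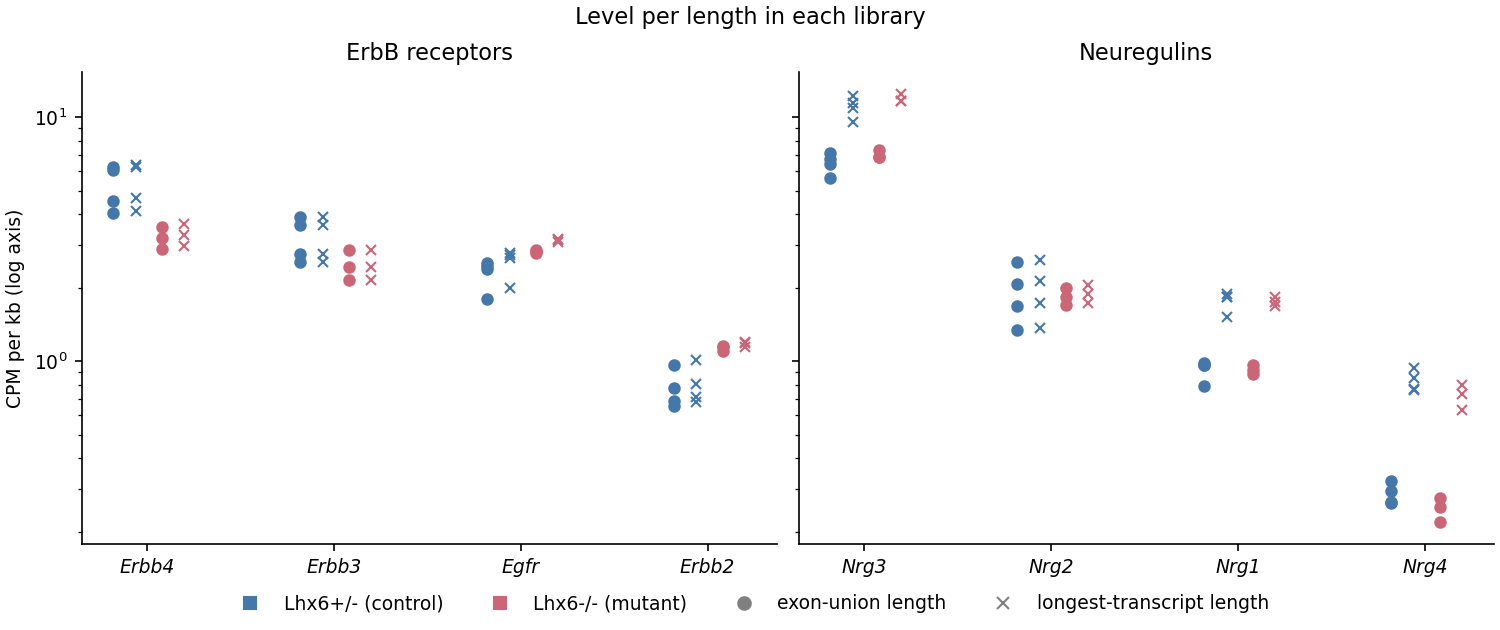
Level in CPM per kb (log axis) of the 4 receptors and 4 neuregulins in each library, by the length of all exon sequence (circles) and of the longest transcript (crosses). Nrg3 is the highest neuregulin in all libraries, and Erbb4 the highest receptor except in mutant library 5 by the longest transcript; the choice of length moves Nrg1, Nrg3 and Nrg4 most.

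Across the 7 libraries, Erbb4 and Erbb3 had a Pearson correlation of log2 CPM of 0.93, Egfr and Nrg3 of 0.91, Erbb2 and Egfr of 0.79, and Erbb4 and Erbb2 of -0.75. These values describe 7 libraries that share the genotype and the sets of library numbers, and no p is given. The genes most like each member by this measure, of all tested genes, had correlations from 0.9357 to 0.9979. For Erbb4 they were Nwd2 (0.9929), Rasgrf1 (0.9895), an exchange factor gene of neurons, and Kctd9 (0.9887). For Erbb2 they were Fam19a3 (0.9979), Gsap (0.9906) and C030034L19Rik (0.9863). For Erbb3 they were Itpr1 (0.9966), the gene of a calcium release channel, Plpp2 (0.9947) and Slx4ip (0.9928). The closest to Egfr were Tvp23a (0.9972), Otogl (0.9947) and Garem (0.9944), an adaptor gene of EGF receptor signalling. The closest to Nrg1 were Kif26b (0.9891), 5330439K02Rik (0.9805) and Gabbr2 (0.9793), a GABA-B receptor subunit gene; to Nrg2 they were Efcc1 (0.9918), 1700030C10Rik (0.9793) and D430041D05Rik (0.9768). Nrg3 was followed by Dgcr2 (0.988), Prg4 (0.9858) and Prss57 (0.9854), and Nrg4 by Crim1 (0.9769), Foxo4 (0.9496) and Car3 (0.9357).

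Beyond the receptors and ligands, 76 of 79 pathway genes in 5 lists were tested. The signal downstream of ErbB receptors runs through adaptors to the MAP kinase and PI3 kinase cascades and to STAT5, and is limited by ubiquitin ligases and feedback inhibitors. Of the 76 genes, 1 rose and 0 fell, where 4.85% of all genes were called, and their median log2 fold change was 0.00039, beside -0.013 over all genes. Libraries of the genotypes did not overlap for 16 of the 76, a share near the 19.7% of all genes.

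Stat5a, a transcription factor gene activated by ErbB4 and by cytokine receptors, was the gene that rose. Counts were 109, 102, 97.9 and 98.6 in the controls and 167, 140 and 169 in the mutants. All mutant libraries exceeded all controls. The log2 difference was 0.64 (SE 0.137, adjusted p = 0.0348), and it was called in 8 of 15 alternatives, with adjusted p from 0.0068 to 0.173. Leaving out 1 library kept the call only for control 3 (0.047); the adjusted p was 0.0579 to 0.103 without control 2, 10 or 11 and 0.066 to 0.173 without mutant 5, 12 or 13.

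The other 31 of 32 adaptor and kinase genes did not pass. Among the most abundant of them, Gsk3b, a kinase gene downstream of AKT, differed by -0.075 (adjusted p = 0.765). Of 12 genes of ligand and receptor processing, 0 passed. Bace1, the protease that cleaves Nrg1, differed by -0.13 (adjusted p = 0.459) and Adam10, a sheddase, by 0.16 (adjusted p = 0.275), and the median was 0.14.

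Of the 7 other EGF-family ligands, Areg, Ereg and Epgn had too few counts to be tested, and 0 of the other 4 passed. Tgfa, the EGFR ligand with the highest count here, differed by 0.02 (adjusted p = 0.962) and Hbegf, another EGFR ligand, by -0.13 (adjusted p = 0.732). Of 17 negative regulators 0 passed, with a median of -0.016. Nedd4, a ubiquitin ligase gene, differed by -0.037 (adjusted p = 0.914). Of 11 scaffold, chaperone and nuclear partners 0 passed, with a median of -0.035. Dlg4, which encodes the scaffold PSD-95 that binds ErbB4 at synapses, differed by -0.14 (adjusted p = 0.528), and Hsp90ab1, a chaperone gene, by -0.11 (adjusted p = 0.778).

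With the set of library numbers as a term, 5 of the 76 genes rose and 3 fell, where 11.2% of all genes were called. Besides Stat5a, those that rose were the metalloprotease gene Adam19 (0.52, adjusted p = 0.00851), the PI3 kinase subunit gene Pik3r3 (0.33, adjusted p = 0.0136), the feedback inhibitor gene Spry2 (0.62, adjusted p = 0.00113) and Yap1 (0.30, adjusted p = 0.0431), a coactivator that binds the intracellular part of ErbB4. Those that fell were Map2k1, Mapk3 and Itch, which encode the kinases MEK1 and ERK1 and a ubiquitin ligase, with log2 differences of -0.30, -0.37 and -0.26. These 7 genes were named after their values were seen.

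**Figure D5:**
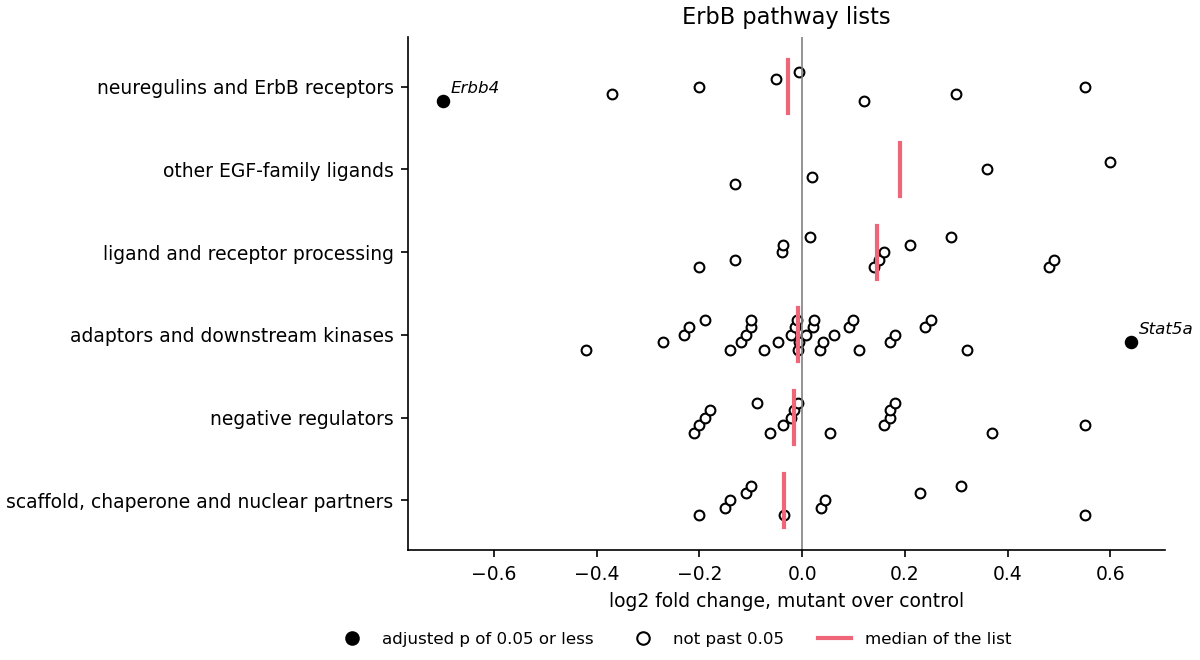
Log2 fold change of mutant over control (horizontal axis) of each tested gene in the member list and the 5 pathway lists, with the median of each list as a bar; filled circles passed an edgeR adjusted p of 0.05 and are named. Erbb4 at -0.70 and Stat5a at 0.64 are the 2 filled circles, and the medians lie between -0.035 and 0.19.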

How the data were processed

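Forebrain RNA of P15 Lhx6+/- and Lhx6-/- mice was sequenced on an Illumina GA IIx as single-end reads of 36 bases. The authors trimmed reads with cutadapt 1.9.1, aligned them to the Ensembl GRCm38 transcriptome with Bowtie2 2.2.9 and deposited RSEM 1.2.31 expected counts per gene, not normalized. RSEM divides reads that match several genes, so between 32.9% and 36.0% of values per library were not whole. Whether counting used strand is not given in the sources used here. The authors also deposited their DESeq2 comparison, of which only identifiers and symbols were read, and the exon annotation, whose start and end coordinates gave positions, lengths and overlaps. The 36-base words shared between genes were counted in a later GENCODE annotation of the same build. RNA integrity was 9 to 10 in control and 9.8 to 10 in mutant pools, and the sample records state 0.5 ug of RNA as input where the methods state more; neither RIN nor sex could be tied to a column. Labels call the libraries replicates; the study describes its controls as littermates of the mutants, and which pools shared a litter is not given in the sources used here.

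Expected counts were rounded, genes reaching 10 counts in 3 or more libraries were scaled by TMM (factors 0.976 to 1.03) and tested with edgeR 4.0.16 (R 4.3.3) by the quasi-likelihood F-test without covariates, adjusted by Benjamini-Hochberg over all tested genes. The SE of a log2 fold change is its size divided by the root of the F statistic. Correlations used log2 CPM with a prior count of 2. The Erbb4 ratio was compared by an exact permutation test. Same-genotype libraries differed with a chi-square of 9.91 to 70.3 per degree of freedom, so none was another library sequenced again. This value cannot tell libraries of separate pools from separate libraries of a single pool. All columns of counts were used, and 0 were left out. Tests were tried on simulated data.

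The members, the 5 pathway and 10 marker lists, the tests and the alternatives were chosen with earlier results of these data known. Named genes were the members, each pathway gene called and, in lists with fewer than 2, the 2 of highest mean count, the 3 most correlated genes per member, defining cell type markers, and genes whose exons overlap a member; markers that passed in a list were named after their values were seen, and some genes of these lists are counted but not reported here by name. Of the marker lists not described with a member, 0 of 6 microglia and 0 of 6 endothelium genes passed, with medians of -0.13 and 0.30. With the set of library numbers as a term, 1 microglia gene fell and 3 endothelium genes rose. Protein sequences were planned but not used here, and promoter windows from RefSeq, chosen after the files were seen, are shown in their place. Alternatives were DESeq2 1.42.0, limma-voom (limma 3.58.1), other scalings and filters, unrounded counts, a term for the sets of library numbers, and leaving out each library.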

Additional observations from a re-analysis of the deposited data

Results flagged for a closer look

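One member value stood apart from its group. In control library 3, Nrg1 had 293 normalized counts where the other 3 controls had 355 to 362, and the gap was 0.895 of the whole range of the 4 controls, above Dixon's 95% critical value. Without that library the 3 remaining controls and the 3 mutant libraries still overlapped. Of 9 sets of 4 control values tested in this way, 1 passed, and chance passes about 1 in 20; sets of 3 were not tested.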

How the results depend on the processing

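In 15 alternatives, Erbb4, Erbb2, Erbb3, Egfr, Nrg3 and Nrg4 kept the sign of their log2 fold change. DESeq2 called 1731 genes against 954, 1 member higher and 6 pathway genes against 1. With the set of library numbers as a term, 2205 genes, 1 member higher, 2 members lower and 8 pathway genes were called. Limma-voom (Erbb4 adjusted p = 0.0558) and upper quartile scaling (0.0512) called 0 members lower. Pathway calls were 2 with upper quartile scaling and with no filter, and 3 with 10 counts in all 7 libraries and with unrounded counts; the causes were not tested. Leaving out 1 library gave 302 to 971 genes, 0 to 1 members higher, 0 to 1 members lower and 0 to 2 pathway genes; these fits hold fewer samples. Nrg1 changed sign with upper quartile scaling (0.02), and ran from -0.072 to 0.025 without 1 library; Nrg2 ran from -0.19 to 0.12. No paired analysis was possible because no count column gives the replicate number of its sample. Depth limits Nrg4 most, at 47.3 to 70.0 counts per library.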
